A study of Mus musculus with 16 samples.

Results

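Sialic acids are acidic sugars that cap many glycans of brain glycoproteins and gangliosides. Cells make N-acetylneuraminic acid (NeuAc), the main sialic acid of the brain, from UDP-GlcNAc in the cytosol, activate it to CMP-NeuAc in the nucleus and carry CMP-NeuAc into the Golgi, where sialyltransferases use it. In mice, but not in humans, CMP-NeuAc can also be hydroxylated to the donor of N-glycolylneuraminic acid (NeuGc), a form that is scarce in the mammalian brain. Sialidases remove sialic acid again in lysosomes and at membranes. The 9 genes described here are 5 genes of this supply route (*Gne*, *Nans*, *Nanp*, *Cmas* and *Slc35a1*), the gene of NeuGc synthesis (*Cmah*) and 3 sialidase genes (*Neu1*, *Neu3* and *Neu4*), chosen by name out of 37583 genes in the count files.

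RNA was sequenced from the cortex and the cerebellum of 8 C57BL/6J mice, 4 wild-type mice and 4 *Slc39a8* A391T (A393T) mutants, giving 16 libraries, 1 from each region of each mouse. The study's methods give the wild-type mice as males of 12 weeks. The A391T allele is a missense change of *Slc39a8*, a gene for a metal transporter, and the labels give no zygosity. The cortex was dissected as frontal cortex, and the libraries carry the mouse number after CTX (cortex) or CBLM (cerebellum), as CTX445, CTX446, CTX461 and CTX462 (A391T) and CTX447, CTX448, CTX479 and CTX480 (wild type) in cortex and likewise in cerebellum. Each mouse was its own sample, with no pooling stated.

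Each library had from 20813432 to 30497206 reads counted on genes, and *Slc39a8* RNA had a level of 2.30 ± 0.477 TPM (SD, n = 8) in cortex and of 2.67 ± 0.250 TPM in cerebellum, a level that cannot check a missense label. TPM are counts per base of gene length, brought here to one common total for all libraries. The regions fitted their labels, with summed cerebellar markers (11 genes) at medians of 276 TPM (cortex) and 6601 TPM (cerebellum) and cortical markers (8 genes) at 2975 and 941 TPM, with no marker at 0 throughout a region. Cerebellum libraries differed widely in choroid plexus markers (8 genes, from 54.2 to 8143 TPM summed, against 9.54 to 52.2 TPM in cortex). Striatal markers in cortex libraries ranged from 440 to 1560 TPM. For 8 libraries, those of the mice of CTX447, CTX448, CTX461 and CTX462, the authors' RPKM table carries the names of the other genotype, so genotype comparisons were also made with those names and without those mice. The comparison of regions over all mice, which has genotype as a term, was made in both ways as well.

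For 2 of the 9 genes, *Nanp* and *Cmah*, hardly any reads were counted. *Nanp* (ENSMUSG00000053916) encodes the phosphatase that releases free NeuAc from NeuAc-9-phosphate, the step between *Nans* and *Cmas*. Its position in the assembly NCBIM37 (mm9) is chromosome 2, from 150855421 to 150865134, minus strand. Of all stretches of 50 bases, the read length, inside its exons, 1244 of 1341 (92.8%) occurred at a second place of the assembly, and each of these matched at chr17:91636115-91637456 on chromosome 17. The annotation there holds *Gm6741* (ENSMUSG00000043346), a gene of 1 exon from 91636111 to 91637106 on the plus strand. All 744 coding bases of *Nanp* were found there without a difference (100%). The first 120 coding bases of *Nanp*, on chromosome 2 from position 150865062 downwards, and the same stretch of the copy, on chromosome 17 from position 91636151 upwards, are shown from 5′ to 3′ because the copy runs through the place where *Nanp* is spliced. Lower case marks the 90 bases of coding exon 1 and capitals the first bases of exon 2.
Nanp: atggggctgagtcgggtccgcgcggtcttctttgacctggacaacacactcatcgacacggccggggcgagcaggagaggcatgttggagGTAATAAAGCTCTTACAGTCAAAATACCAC
Copy: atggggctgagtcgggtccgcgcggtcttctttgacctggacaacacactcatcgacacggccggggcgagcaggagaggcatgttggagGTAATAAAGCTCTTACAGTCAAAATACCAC

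Reads that align to more than 1 place were counted apart from genes in these files, as from 8.41% to 12.1% of the entries of a library. *Nanp* had 1, 1, 1 and 2 counts in the wild-type cortex libraries (CTX447, CTX448, CTX479 and CTX480) and 0, 1, 5 and 3 in the A391T cortex libraries (CTX445, CTX446, CTX461 and CTX462). In cerebellum it had 2, 0, 2 and 4 counts in the wild-type libraries and 0, 2, 3 and 0 in the A391T libraries. The copy *Gm6741* had from 0 to 3 counts. The groups overlapped, and the counts of *Nanp* were at or near the 3 counts that a count of 0 allows, so no difference was detectable with these counts. The part of the copy in these low counts was not tested, and the counts give no level for the phosphatase step.

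*Cmah* (ENSMUSG00000016756, chromosome 13, from 24419289 to 24569154, plus strand) encodes the hydroxylase that turns CMP-NeuAc into CMP-NeuGc. It had 7, 0, 2 and 1 counts in wild-type cortex and 1, 1, 3 and 5 in A391T cortex, in the order of mice given above. In cerebellum it had 5, 5, 7 and 5 counts in the wild-type libraries and 1, 0, 2 and 2 in the A391T libraries. No library passed 7 counts, and the highest level was 0.106 TPM, against at least 85.2 TPM for *Cmas*, the gene of the preceding step. For *Cmah*, 38.7% of the 50-base stretches of the exons occurred elsewhere, spread over 3167 places, so most of its stretches (unlike those of *Nanp*) could be counted. For the other 7 genes this share was at most 3.82% (*Neu3*), and it was 0 for 5 of them.

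The wild-type and A391T counts of *Cmah* overlapped in cortex but not in cerebellum, and *Cmah* was the 1 gene of the 9 whose TPM did not overlap between genotypes there, against 5.47% of the 25443 genes with any count in these libraries. With no filter on low counts the log2 fold change in cerebellum was -2.03 (SE 0.59, unadjusted p = 0.00483, adjusted p = 0.643, edgeR). With the names of the RPKM table, CBLM447 and CBLM448 with 5 counts each would be A391T and CBLM461 and CBLM462 with 2 counts each wild-type, and the counts overlapped. In the mice with matching names they did not, with 7 and 5 counts in wild-type (CBLM479 and CBLM480) and 1 and 0 in A391T (CBLM445 and CBLM446). Between regions, *Cmah* itself did not pass the test with no filter, with a log2 fold change of cerebellum over cortex of 0.28 (SE 0.52, adjusted p = 0.678) over all mice, 0.99 (SE 0.65, adjusted p = 0.243) in wild-type mice and -0.97 (SE 0.78, adjusted p = 0.370) in A391T mice. The log2 ratio of *Cmah* to *Cmas*, which also carries the region difference of *Cmas*, with 1 count added to each, was -9.88 ± 0.955 in cortex (SD, n = 8) and -9.01 ± 1.11 in cerebellum, a difference of 0.87 (two-sided exact permutation test, p = 0.117, adjusted over 2 ratios 0.117). It passed the threshold without the A391T library CBLM446, which had 0 counts (1.14, exact p = 0.0286), and in wild-type mice alone (1.86, exact p = 0.0286), and was -0.12 in A391T mice alone (exact p = 0.83), with 0.0286 the smallest p that 4 against 4 allow.

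**Figure D1:**
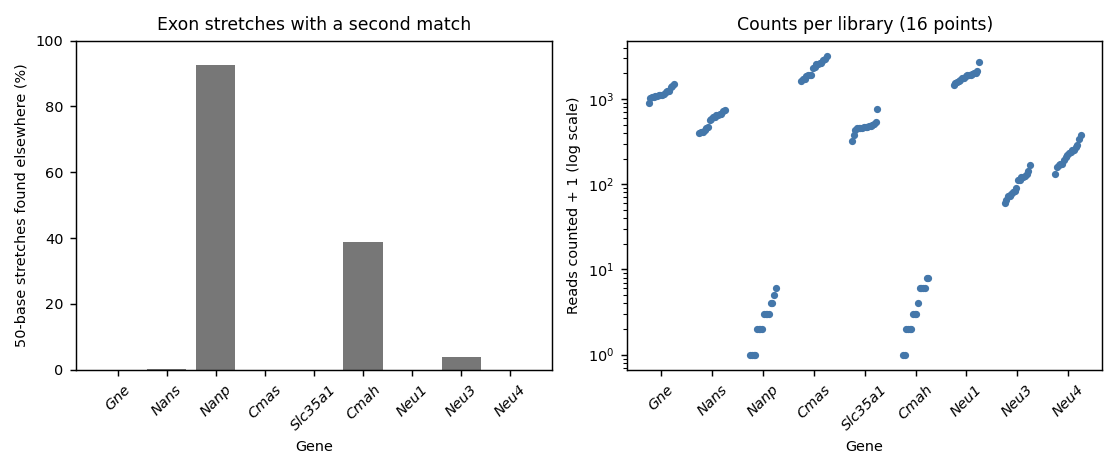
Left, percent of the 50-base stretches inside each gene's exons that occur at another place of the NCBIM37 assembly, and right, reads counted per gene with 1 added, on a log axis, with 1 point for each of the 16 libraries. *Nanp* stands at 92.8% on the left and between 0 and 5 counts on the right, while *Cmah* stands at 38.7% and between 0 and 7 counts.

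The other 7 genes were measured well enough for a test. *Cmas* (chromosome 6, from 142705206 to 142724234), which encodes the nuclear synthetase that activates NeuAc to CMP-NeuAc, had the highest level of the 9 genes in both regions, at 130.2 ± 6.51 TPM (SD, n = 8, as for the values that follow) in cortex and 92.6 ± 5.28 TPM in cerebellum. It ranked above 94.0% of the 27196 genes with any count in cortex and above 90.7% in cerebellum. The lysosomal sialidase gene *Neu1* (chromosome 17, from 35068198 to 35072898) came next, at 62.9 ± 2.06 and 75.9 ± 4.37 TPM. *Gne* (chromosome 4, from 44046947 to 44097049), whose enzyme makes and phosphorylates the sialic acid precursor ManNAc in the first steps of the route, was at 26.2 ± 1.80 and 25.3 ± 3.47 TPM. The Golgi transporter gene of CMP-sialic acid, *Slc35a1* (chromosome 4, from 34610506 to 34634687), was at 24.4 ± 3.16 and 29.3 ± 3.05 TPM. *Nans* (chromosome 4, from 46502120 to 46516504), the gene of the synthase that forms NeuAc-9-phosphate, was at 14.4 ± 1.00 and 21.0 ± 2.63 TPM.

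The membrane sialidase genes were lower. *Neu4* (chromosome 1, from 95917070 to 95924903) had 8.68 ± 0.856 TPM in cortex libraries and 5.87 ± 0.828 TPM in cerebellum libraries, and the level of *Neu3* (chromosome 7, from 106959949 to 106976927), whose enzyme acts on gangliosides of the plasma membrane, was 3.25 ± 0.374 and 5.73 ± 0.488 TPM. In cortex the order was *Cmas*, *Neu1*, *Gne*, *Slc35a1*, *Nans*, *Neu4*, *Neu3*, and each gene stood above the next in 8 of 8 libraries except *Gne* over *Slc35a1* (5 of 8). In cerebellum *Slc35a1* stood above *Gne* in 7 of 8 libraries, *Gne* above *Nans* in 7 of 8 and *Neu4* above *Neu3* in 5 of 8, so these neighbours were not separated. The supply genes were unequal along the route, as *Cmas* was at 9.09 ± 0.774 times the level of *Nans* in cortex and 4.49 ± 0.871 times in cerebellum (ratio of TPM within a library). The length used for *Nans* was not reduced for the 29.6% of its exon bases that lie opposite exons of *Trim14*. Reads ambiguous between genes were left out there, which lowers the TPM of *Nans*, and the size of this effect on the ratio was not tested.

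**Figure D2:**
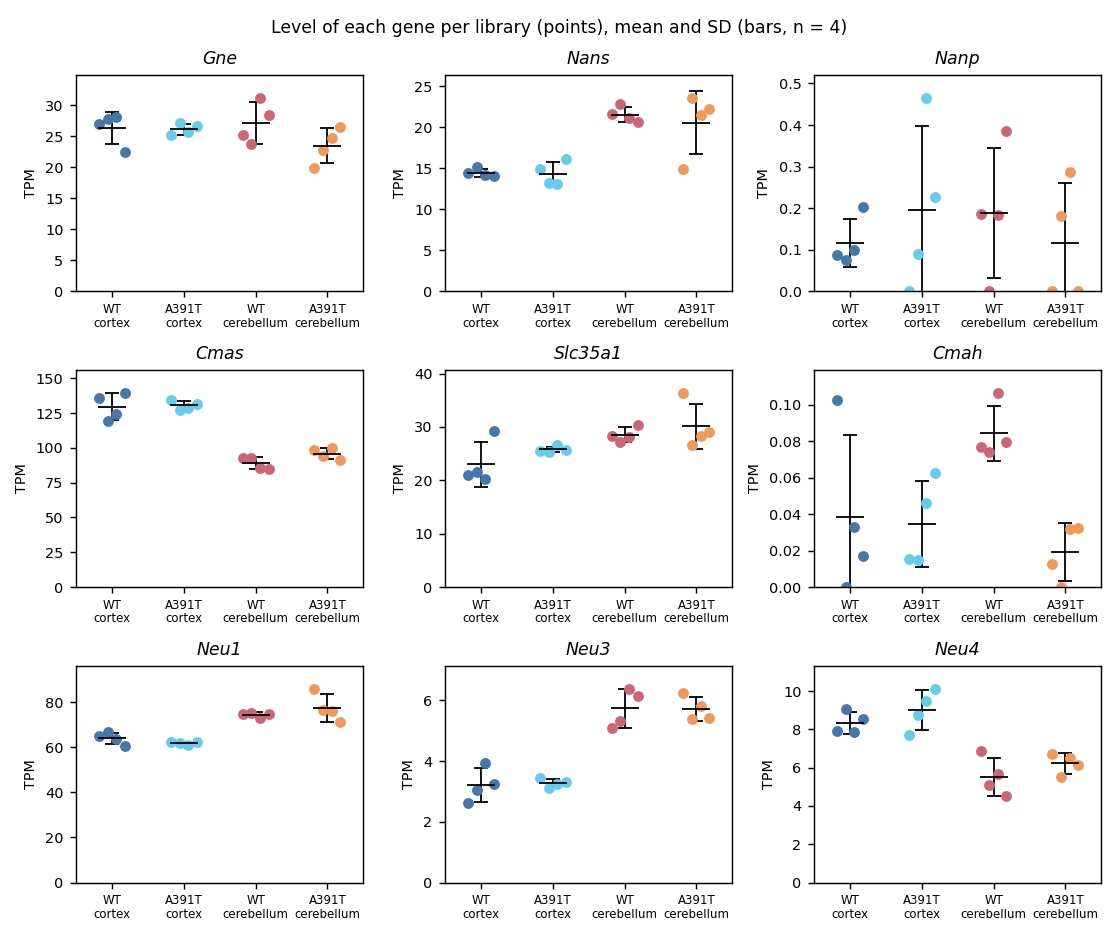
TPM of each of the 9 genes in every library (points, in the order of mouse numbers), with the mean and SD of the 4 mice of a group (bars, cut off at 0). *Cmas* stands at 119 to 139 TPM in the cortex libraries and 85.2 to 100.04 TPM in the cerebellum libraries, and 1 A391T cerebellum library (CBLM445) stands apart for *Nans* at 15.0 TPM and *Slc35a1* at 36.3 TPM.

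The comparison of cerebellum with cortex asked how the supply and removal of sialic acid differ in expression between the regions. Over all mice, 6 of the 7 tested genes differed at an adjusted p under 0.05 (edgeR's quasi-likelihood test with genotype in the model and Benjamini-Hochberg adjustment over 16589 genes), against 74.3% of all genes tested, so the count was close to the background. *Nans*, *Neu1* and *Neu3* were higher in cerebellum (3 of 7, against 38.8% of all genes) and *Gne*, *Cmas* and *Neu4* lower (3 of 7, against 35.5%). Of the 7 genes, 6 were called with the names of the RPKM table as well (74.0% of all genes), and in the mice with matching names 4 of 7 (56.4%). None of the 7 changed 2-fold or more, against 25.2% of all genes. Of the 9 genes, 4 (*Cmas*, *Neu1*, *Neu3* and *Neu4*) had TPM that did not overlap between the 8 cortex and 8 cerebellum libraries, against 30.2% of the 27196 genes with any count, and after TMM scaling *Neu1* overlapped as well. The median log2 fold change was 0.16 over the 7 genes and 0.04 over all genes. With library totals in place of TMM the median of all genes moved by 0.12 and the split was 4 higher and 2 lower. Fewer cells that express a gene and less RNA per cell cannot be told apart in these tissue samples.

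Among the supply genes, *Cmas* differed most. Its level was 136, 119, 125 and 139 TPM in wild-type cortex and 134, 127, 129 and 131 TPM in A391T cortex. In cerebellum it was 92.9, 92.7, 85.8 and 85.2 TPM in the wild-type mice and 98.4, 94.3, 100.04 and 91.2 TPM in the A391T mice. Every cortex library lay above every cerebellum library. The log2 fold change of cerebellum over cortex was -0.61 (SE 0.05, adjusted p = 8.34e-09) over all mice, -0.69 (SE 0.08, adjusted p = 9.14e-06) in wild-type mice and -0.54 (SE 0.07, adjusted p = 6.25e-05) in A391T mice.

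*Nans* went the other way. Its level was 14.4, 15.2, 14.2 and 14.1 TPM in wild-type cortex and 14.9, 13.2, 13.1 and 16.1 TPM in A391T cortex. In cerebellum it was 21.6, 22.8, 21.1 and 20.6 TPM in the wild-type mice and 15.0, 23.6, 21.4 and 22.2 TPM in the A391T mice. On the TPM scale it was higher in cerebellum than in cortex in 8 of 8 mice (7 of 8 after TMM scaling), and the low A391T library CBLM445 lay within the range of cortex. The log2 fold change was 0.42 (SE 0.07, adjusted p = 2.04e-05) over all mice and 0.45 (adjusted p = 4.07e-07) without that library. Of the exon bases of *Nans*, 29.6% lie opposite exons of *Trim14*, and reads were counted without strand. Reads that fell on exons of both genes were therefore ambiguous and stayed out of the counts of both. *Trim14* was at 0.129 to 0.521 TPM, from counts that leave out these reads, and the share of its other reads in the counts of *Nans* was not tested.

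The ends of the supply route differed little. *Gne* was at 22.5 to 28.0 TPM in cortex (median 26.8) and 19.9 to 31.2 TPM in cerebellum (median 24.9), ranges that overlapped, and it was lower in cerebellum in 6 of 8 mice. Its log2 fold change was -0.18 (SE 0.06, adjusted p = 0.0136), -0.06 with library totals (adjusted p = 0.368), -0.13 in the mice with matching names (adjusted p = 0.349) and -0.02 in the libraries with under 1000 TPM of choroid plexus markers, which hold 2 cerebellum libraries (adjusted p = 0.828). Of the 6 calls, those of *Nans*, *Cmas*, *Neu3* and *Neu4* held in these libraries (4 of 7, against 63.8% of 17206 genes). *Slc35a1* was at 20.2 to 29.3 TPM in cortex (median 25.4) and 26.7 to 36.3 TPM in cerebellum (median 28.3). On the TPM scale it was higher in cerebellum in 8 of 8 mice and after TMM scaling, as used in the test, in 6 of 8, and with a log2 fold change of 0.16 (SE 0.09, adjusted p = 0.118) it did not pass. It passed with library totals (0.27, adjusted p = 0.0122) and without the wild-type library CTX480, its highest in cortex (0.22, adjusted p = 0.0164), and was 0.07 without the A391T library CBLM445, its highest in cerebellum (adjusted p = 0.384).

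**Figure D3:**
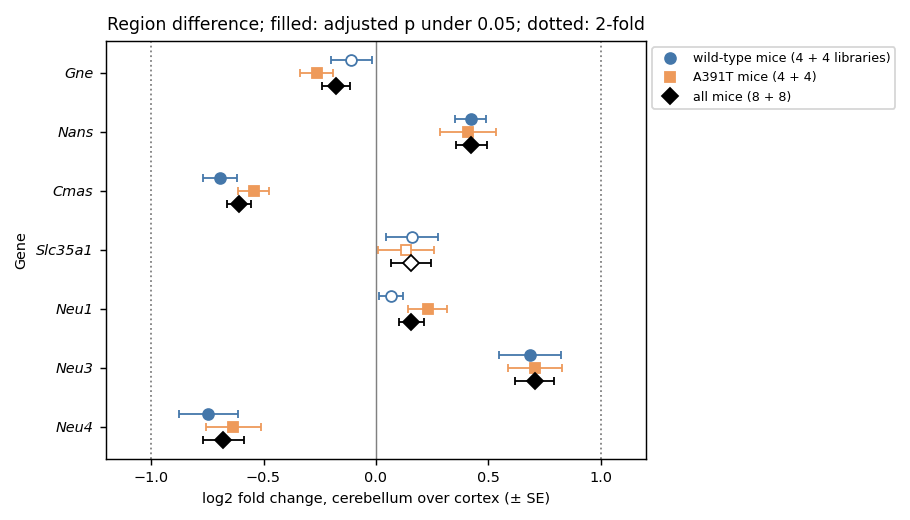
Log2 fold change of cerebellum over cortex (bars, standard error) for the 7 tested genes, in wild-type mice, A391T mice and all mice. Filled symbols have an adjusted p under 0.05, and no symbol reaches the dotted lines at 2-fold, with values from -0.75 (*Neu4*, wild-type mice) to 0.71 (*Neu3*, A391T mice).

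The sialidase genes differed from each other in direction. *Neu3* was at 2.62, 3.06, 3.95 and 3.24 TPM in wild-type cortex and 3.44, 3.11, 3.26 and 3.31 TPM in A391T cortex. In cerebellum it was at 5.09, 5.32, 6.38 and 6.16 TPM in the wild-type mice and 6.24, 5.38, 5.82 and 5.44 TPM in the A391T mice. All cerebellum libraries lay above all cortex libraries, with a log2 fold change of 0.71 and an SE of 0.09 (adjusted p = 7.69e-07).

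*Neu4* was at 7.93, 9.08, 7.85 and 8.55 TPM in wild-type cortex and 7.68, 8.77, 9.48 and 10.1 TPM in A391T cortex. In cerebellum it was at 6.85, 5.11, 5.65 and 4.50 TPM in the wild-type mice and 6.72, 5.50, 6.52 and 6.12 TPM in the A391T mice. Here all cortex libraries lay above all cerebellum libraries, with a log2 fold change of -0.68 (SE 0.09, adjusted p = 1.98e-06). Markers of oligodendrocyte precursors moved in the same direction as *Neu4*, with 3 of 3 genes lower in cerebellum and a summed level of 67.2 to 89.9 TPM in cortex and 29.8 to 36.0 TPM in cerebellum. Markers of mature oligodendrocytes (10 genes) had medians of 4633 TPM in cortex and 4880 TPM in cerebellum. Their part in the difference of *Neu4* was not tested.

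Within a library, the log2 ratio of *Neu3* to *Neu4* counts, which needs no scaling between libraries, was -1.88 ± 0.228 in cortex (from -2.08 to -1.45) and -0.49 ± 0.263 in cerebellum (from -0.89 to -0.01; SD, n = 8). The difference was 1.39 (two-sided exact permutation test, p = 1.55e-04, adjusted over 2 ratios 3.11e-04), and 1.55e-04 is the smallest p that 8 against 8 libraries allow. In the sign-flip test within mice, exact p was 0.00781, with the ratio higher in cerebellum in 8 of 8 mice. Each gene alone already separated all libraries by region, in opposite directions, so the ratio had to separate them too. Both p-values were thus fixed in advance at their floors and add nothing to the results of the 2 genes.

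*Neu1*, whose enzyme is active in lysosomes in a complex with cathepsin A (*Ctsa*), was at 60.7 to 66.7 TPM in cortex (median 62.3) and 71.4 to 85.9 TPM in cerebellum (median 75.0). All cerebellum libraries lay above all cortex libraries on the TPM scale, while after TMM normalization the log2 fold change was 0.16 (SE 0.06, adjusted p = 0.0167). It was 0.09 without the A391T library CBLM445 (adjusted p = 0.0164), 0.22 in the mice with matching names (adjusted p = 0.0880) and 0.04 in the libraries with under 1000 TPM of choroid plexus markers (adjusted p = 0.534). In wild-type mice alone it was 0.07 (adjusted p = 0.296) and in A391T mice alone 0.23 (adjusted p = 0.0437, and 0.0646 with mouse as a block, called in 3 of 8 fits without 1 library, 0.14 without CBLM445), while the interaction of region and genotype was 0.18 (adjusted p = 0.769). *Ctsa* had 81.9 ± 1.86 TPM in the cortex libraries and 80.9 ± 11.8 TPM in the cerebellum libraries, where CBLM445 stood at 52.1 TPM.

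*Neu2*, the gene of the cytosolic sialidase and not one of the 9 genes, had the largest region difference of the 4 sialidase genes. It was at 6.16 to 10.4 TPM in cortex and 1.54 to 2.84 TPM in cerebellum, with a log2 fold change of -2.16 (SE 0.14, adjusted p = 5.59e-11). Of its exon bases, 4.75% lie opposite exons of *Ngef*. The genes also overlap beyond these exons on chromosome 1, with *Neu2* from 89406464 to 89494420 and *Ngef* from 89373409 to 89470445 on the other strand. Reads were counted without strand, and the 4.75% does not cover reads from introns of *Ngef*. The level of *Ngef* was 517 ± 33.8 TPM in cortex libraries and 20.2 ± 7.97 TPM in cerebellum libraries. The share of *Ngef* reads in the counts of *Neu2* was not tested. Of the summed TPM of the 4 sialidase genes, *Neu1* held 75.3% ± 1.66 in cortex (SD, n = 8) and 84.7% ± 1.06 in cerebellum. The share of *Neu2* was 10.4% ± 1.64 and 2.37% ± 0.577, that of *Neu3* 3.89% ± 0.443 and 6.40% ± 0.554, and that of *Neu4* 10.4% ± 1.09 and 6.55% ± 0.820.

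**Figure D4:**
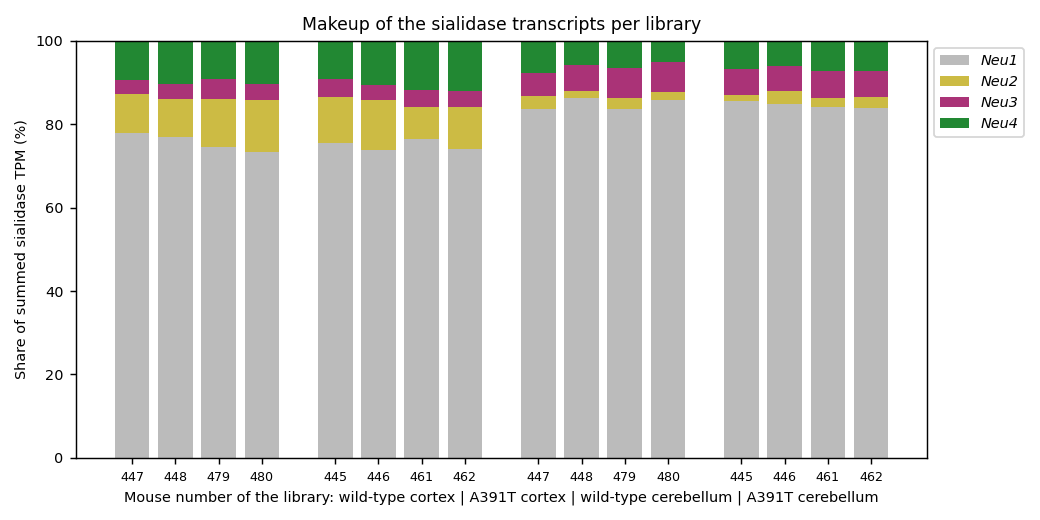
Share of each sialidase gene in the summed TPM of *Neu1*, *Neu2*, *Neu3* and *Neu4*, with 1 bar per library. *Neu1* holds 73.2% to 77.9% in the cortex libraries and 83.6% to 86.2% in the cerebellum libraries, while the shares of *Neu2* and *Neu4* are smaller and that of *Neu3* larger in cerebellum.

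In wild-type mice alone, 4 of the 7 tested genes were called (*Nans* and *Neu3* higher, *Cmas* and *Neu4* lower), against 67.8% of 16040 genes. In A391T mice alone, 6 of 7 were called (*Nans*, *Neu1* and *Neu3* higher, *Gne*, *Cmas* and *Neu4* lower), against 62.8% of 16005 genes. In A391T mice, 4 of 7 were called without CTX446 (57.2% of all genes) or without CTX461 (58.0%), where *Nans* and *Neu1* were lost, and 2 of 7 in the 2 mice with matching names (40.8%). Over the fits of A391T mice without 1 library, the log2 fold change ranged from 0.35 to 0.51 for *Nans* (0.41 with all) and from 0.14 to 0.28 for *Neu1* (0.23 with all). No gene of the 7 was called at 2-fold or more in either, against 24.7% of all genes in wild-type mice and 24.7% in A391T mice. The genotypes were not shown to differ in these region differences. The interaction of region and genotype called 0 of 7 (0.0% of 16589 genes), with interaction values from -0.14 (*Gne*) to 0.18 (*Neu1*), standard errors from 0.10 to 0.18 and 0 of 7 at an unadjusted p under 0.05, by edgeR and by DESeq2. The values ranged from -0.27 (*Gne*, unadjusted p = 0.0220, adjusted p = 0.501) to 0.26 (*Neu4*) with the names of the RPKM table, and from -0.41 (*Gne*) to 0.40 (*Neu4*) in the mice with matching names. Without CBLM462 that of *Neu1* was 0.23 (unadjusted p = 0.0372, adjusted p = 0.570).

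A391T mice were compared with wild-type mice within each region. In cortex 0 of 7 genes were called, against 2 of 15815 genes (0.0126%), and in cerebellum 0 of 7, against 0 of 15668 genes (0.0%), where 1340 genes had an unadjusted p under 0.05. None of the 7 genes had an unadjusted p under 0.05 in either region in the main edgeR fits or by DESeq2, which called 14 genes in cortex and 30 in cerebellum. In cerebellum 1 of the 7 had one in the edgeR fits without CBLM462, without CBLM447, without CBLM448 and with all 16 libraries in one model. Log2 fold changes of A391T over wild type ranged from -0.07 (*Neu1*) to 0.14 (*Slc35a1*) in cortex, with standard errors from 0.05 to 0.14. In cerebellum they ranged from -0.16 (*Gne*) to 0.23 (*Neu4*), with standard errors from 0.08 to 0.15. The smallest adjusted p was that of *Cmas* in cerebellum (0.16, adjusted p = 0.532, edgeR). These values moved with the names given to the libraries. In cortex *Slc35a1* went from 0.14 to -0.14 and *Neu4* from 0.09 to -0.12 with the names of the RPKM table, and they were at 0.01 and -0.02 in the mice with matching names. In cerebellum *Gne* was at -0.21 with the names of the RPKM table (unadjusted p = 0.0238, adjusted p = 0.549) and at -0.37 in the mice with matching names (unadjusted p = 0.0315, adjusted p = 0.473), where *Neu4* was at 0.40 and *Cmas* at 0.30. Without CTX480 *Slc35a1* was at 0.29 in cortex (unadjusted p = 7.79e-04, adjusted p = 0.396), and without CBLM445 at -0.01 in cerebellum. The ranges of the 2 genotypes overlapped for each of the 7 genes in both regions, while 2.64% of the genes with any count in cortex and 5.47% in cerebellum did not overlap.

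**Figure D5:**
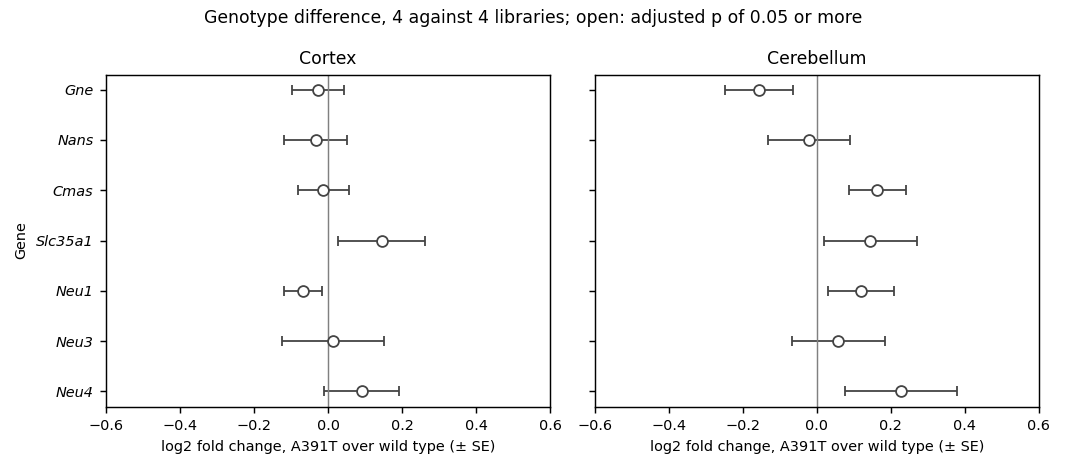
Log2 fold change of A391T over wild type (bars, standard error) for the 7 tested genes in cortex and cerebellum, 4 against 4 libraries. All symbols are open, with an adjusted p of 0.05 or more, and lie between -0.16 and 0.23.

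Upstream of the route, the hexosamine pathway makes UDP-GlcNAc, and related enzymes salvage GlcNAc and ManNAc. Of 9 genes of this group, 5 were higher in cerebellum and 3 lower over all mice, 2 of the lower ones at least 2-fold, with a median log2 fold change of 0.17. Among all genes tested 74.3% were called, 38.8% higher and 35.5% lower, 25.2% at 2-fold or more, and the median was 0.04, so the 8 calls were close to the background. *Nagk*, which phosphorylates GlcNAc for salvage, had a mean of 42.5 TPM in cortex and of 18.8 TPM in cerebellum (log2 fold change -1.29, adjusted p = 8.33e-13). *Gfpt2*, 1 of 2 genes for the entry enzyme of the pathway, was at 5.77 and 2.21 TPM (-1.51, adjusted p = 3.75e-09), while its paralog *Gfpt1* was at 36.0 and 44.0 TPM (0.17, adjusted p = 0.0190). *Renbp*, which interconverts GlcNAc and ManNAc, was at 7.24 and 14.8 TPM (0.91, adjusted p = 1.80e-09). *Uap1*, which forms UDP-GlcNAc, was lower in cerebellum (-0.52), and *Gnpnat1* (0.42), *Amdhd2* (0.24) and *Pgm3* (0.22) were higher, with adjusted p from 8.03e-09 to 0.0152. *Uap1l1* did not pass the test (-0.08, adjusted p = 0.443).

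For the recycling and breakdown of sialic acid, 5 of 7 genes were lower in cerebellum and 1 was higher, against 35.5% lower and 38.8% higher among all genes, with a median log2 fold change of -0.57 against 0.04 over all genes. Besides *Neu2*, the lower genes were *Siae* (-0.67, adjusted p = 2.01e-09), whose esterase removes O-acetyl groups, and *Slc17a5* (-0.61, adjusted p = 4.83e-07), which exports sialic acid from lysosomes. *Npl* (-0.57, adjusted p = 0.00368), the lyase that cleaves free NeuAc, and *Glb1* (-0.50, adjusted p = 3.00e-07), the lysosomal beta-galactosidase, were lower as well. *Casd1*, which adds O-acetyl groups to sialic acid, was higher (0.19, adjusted p = 6.60e-05), and *Ctsa* did not pass the test (-0.14, adjusted p = 0.0561). Microglial markers moved with these genes, with 8 of 8 lower in cerebellum and a summed level of 680 to 891 TPM in cortex and 235 to 295 TPM in cerebellum. Their part in these differences was not tested.

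Of the 20 sialyltransferase genes, which use the CMP-NeuAc that *Slc35a1* brings to the Golgi, 19 were tested. Of these, 7 were higher in cerebellum (3 at least 2-fold) and 10 lower (5 at least 2-fold), against 38.8% higher, 35.5% lower and 25.2% at 2-fold or more among all genes, with a median log2 fold change of -0.16. The largest differences were those of *St6gal2* (-4.11, adjusted p = 4.20e-15, 29.9 TPM in cortex and 1.89 TPM in cerebellum), *St6galnac5* (-3.99, adjusted p = 1.19e-18, 48.3 and 3.31 TPM) and *St3gal1* (-1.95, adjusted p = 1.58e-09, 20.8 and 5.90 TPM). Of 9 genes for lectins that bind sialic acid, 5 were tested, of which 3 were lower in cerebellum, all at least 2-fold, and 1 higher, against 35.5% lower, 38.8% higher and 25.2% at 2-fold or more among all genes. The lower genes were *Siglech* (-2.20), *Cd33* (-1.98) and *Siglece* (-1.79), with adjusted p from 5.22e-15 to 5.01e-07, and the higher one was *Mag* (0.24, adjusted p = 0.0117), a gene of myelin. The microglial markers, 8 of 8 lower in cerebellum, moved in the same direction as the 3 lower lectin genes, and their part was not tested.

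The genes whose log2 CPM followed *Neu3* most closely over the 16 libraries, among 14097 genes, were *Agtrap* (Pearson r = 0.979), *Amotl2* (0.977) and *Timeless* (0.977). For *Neu4* they were *Cela1* (0.948), *Ano4* (0.938) and *Klhl5* (0.937). Over the 8 cortex libraries alone the r of *Ano4* with *Neu4* was 0.159. These values describe libraries that share the region difference, and *Cmah* had too few counts for such a ranking.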

How the data were processed

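Libraries were polyA-selected and directional, and the authors aligned the 50-base reads to mm9 (STAR) and assigned them to genes (HTSeq). The deposited values are raw counts per gene, made without regard to strand, and an RPKM table by the authors, used for gene names, gene lengths and library names only. Entries on no gene (10.2% to 13.2%), ambiguous (2.20% to 2.75%) or not unique stayed out of totals.

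Counts were tested with edgeR 4.0.16 (quasi-likelihood test, filterByExpr, TMM) in R 4.3.3 with limma 3.58.1 and Benjamini-Hochberg adjustment over all genes tested, with calls at an adjusted p under 0.05. The 2 genotypes and 2 regions gave 4 groups of 4 mice. Regions were compared over all mice with genotype as a term. The edgeR fit was tested on simulated counts. Alternatives were DESeq2 1.42.0, library totals or RLE size factors for scaling, no filter or one at 1 CPM, single libraries left out, the names of the RPKM table, only mice with matching names, all 16 libraries in one model, mouse as a replicate block and a 2-fold criterion. Those restricted to libraries under 1000 TPM of choroid plexus markers, and those with table names and block together, were chosen after seeing the data. The *Cmah* ratio uses 1 added count because 2 libraries have none. TPM, ratios and exact tests used Python 3.11.15, pandas 2.3.3, numpy 2.4.6 and scipy 1.17.1. Stretches of 50 bases were searched on both strands of NCBIM37.

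The members, lists and rules were chosen with earlier results of these data known. Named genes are the 9 members, *Neu2*, *Slc39a8*, called genes of the hexosamine and recycling lists, the 3 sialyltransferases with the largest change among those called, and the 3 genes most correlated with *Neu3* and *Neu4*. *Uap1l1*, *Ctsa*, *Siglech*, *Cd33*, *Siglece*, *Mag*, *Trim14*, *Ngef* and *Gm6741* were added after their values were seen. Regions with one number come from one mouse according to the study. Deviations of the 2 regions of a mouse from their group means correlated from -0.25 to 0.33 (median -0.08), against -0.39 to 0.31 (median 0.05) between different mice. These values do not show which libraries share a mouse. Libraries of a group differed beyond counting error (3.08 to 74.5 for chi-square divided by its degrees of freedom). The limit stated for *Nanp* where no read was counted covers counting error only, while the SDs and standard errors also hold the spread between libraries.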

Additional observations from a re-analysis of the deposited data

Results flagged for a closer look

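In each group of 4 mice, the highest and the lowest level of each of the 9 genes were compared with the nearest other library, and a gap past Dixon's critical share of the group's whole range was singled out. Of 36 groups, 2 passed, and chance alone gives about 1 in 20. *Slc35a1* was at 29.3 TPM in the wild-type cortex library CTX480, against 20.2, 21.0 and 21.5 TPM in the other mice (gap 0.856 of the range). The region difference of *Slc35a1* passed the test without this library, with a log2 fold change of 0.22 (adjusted p = 0.0164, edgeR). *Cmah* was at 0.106 TPM in the wild-type cerebellum library CBLM479, which is 7 counts against 5 in each of the other mice (gap 0.839 of the range), a gap of 2 counts.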

How the results depend on the processing

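With at least a 2-fold change also required, 0 genes of the 7 were called in wild-type mice, 0 in A391T mice and 0 over all mice. With only the mice whose names match, 2 genes were called in A391T mice (4 libraries) and 4 over all mice, where fewer samples entered. In the other alternatives the number called was 4 or 5 in wild-type mice, 5 or 6 in A391T mice and from 4 to 6 over all mice, and with single libraries left out it ranged from 4 to 5, from 4 to 6 and from 6 to 7 (7 without CTX480, where *Slc35a1* was called). In A391T mice, *Nans* and *Neu1* were both lost without CTX446 (4 called) and without CTX461 (4 called). Neither genotype comparison nor the interaction called any of the genes under any alternative, with 0 called in each. The number of all genes called in cortex was 2 in edgeR, 14 in DESeq2, 7 with no filter and 0 with RLE size factors, library totals or the names of the RPKM table, and in cerebellum it was 0 in edgeR, 30 in DESeq2 and 3 with all 16 libraries in one model. Of all genes, 6617 were called in A391T mice with matching names, against 10056.

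Without single libraries the *Neu3* to *Neu4* difference ranged from 1.32 to 1.45, and that of *Cmah* to *Cmas* from 0.64 to 1.14 (exact permutation p from 0.0286 to 0.219), with 1.86 in wild-type mice alone. In the latter pair 2 libraries had no *Cmah* count, which the added count replaces. With mouse as a replicate block, 5 genes were called in A391T mice (*Neu1* lost), 4 in wild-type mice and 6 over all mice, and no other call changed. The exact sign-flip test within mice gave p = 0.156 for *Cmah* to *Cmas*. Of the 9 genes' group levels, 15 of 216 alternative values moved by more than 1 SD, 7 of them with the names of the RPKM table and 8 after TMM rescaling, and 0 when a single library was left out. Low counts limit *Nanp* and *Cmah*, with at most 5 and 7 counts a library.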

Other observations

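The A391T cerebellum library CBLM445 stood apart for several of these genes at once. It had the lowest cerebellar level of *Nans* (15.0 TPM, against 20.6 to 23.6 TPM in the other 7 cerebellum libraries), *Gne* (19.9 TPM) and *Ctsa* (52.1 TPM). It had the highest level of *Neu1* (85.9 TPM) and *Slc35a1* (36.3 TPM). This library also had the lowest share of reads aligned to more than 1 place (8.41%) and the highest share ambiguous between genes (2.75%) of the 16 libraries. The link of these shares with the gene levels was not tested.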
